A study of Mus musculus with 8 samples.

Results

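Macrophages given menthol before lipopolysaccharide (LPS, an outer-membrane molecule of Gram-negative bacteria) were compared with macrophages given LPS alone, to ask how menthol changes the response to LPS. The comparison used 4 of the 8 arrays in the series, 2 labelled LPS and menthol (LPS+M) and 2 labelled LPS. The cells were RAW 264.7, an established mouse macrophage line, so each group is a model of 1 line in culture. Both groups received LPS at 100 ng/ml for 6 h, and the LPS+M group received menthol for 1 h before it. The other 4 arrays were 2 of control cells and 2 of cells given menthol alone (M), and they served as the background for each value. Arrays of a group are named biological replicates in the labels, with no word on separate cultures, and the p-values therefore reflect array-to-array spread that may be technical. Neither the menthol dose nor the harvest time of control and M cells is in the labels, and the interval from menthol to harvest may not be equal in M and LPS+M.

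Each gene was read from 1 probe set, the one with the highest mean over the arrays among those with a single gene symbol. Of 18193 genes, the 8908 whose mean lay above 4.84, the mean of all probe sets on the log2 scale, were tested. Levels are log2 signals, and a level is compared only with the same gene on other arrays. A difference is the mean of the LPS+M arrays minus that of the LPS arrays, so a difference of 1 is a 2-fold change, and its standard error (SE) follows the sign ±. A gene was called at a limma adjusted p (Benjamini-Hochberg, over the genes tested) under 0.05 with at least a 1.5-fold change. Here "rose" and "fell" are used for called genes. The arrays measure a pool of cells, so fewer cells with a transcript and less of it per cell cannot be told apart.

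As background, LPS is sensed by Toll-like receptor 4, whose adapters switch on NF-κB and, through interferon β and its receptor, the interferon-stimulated genes. NF-κB raises cytokines and chemokines together with its own inhibitors, among them IκBα and A20. Menthol is a cyclic terpene alcohol from mint oils known for opening the cold-sensing channel TRPM8. A separate program, the integrated stress response, raises the transcription factors ATF4 and CHOP, which induce genes of amino acid transport and synthesis when protein synthesis is under strain.

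The arrays were alike in their overall signal. Array medians lay between 2.99 and 3.04, and the 2 arrays of a group correlated at 0.999 over probe sets (not independent of each other). The actin 3′ minus 5′ difference, a sign of RNA quality, was 0.69 to 0.77. Probe sets for 18S ribosomal RNA were lowest on LPS+M replicate 2, where the 3′ probe set read 10.08 against 10.95 to 11.76 on the other 7 arrays, and without that array 708 genes were called in the main comparison, 515 of the original 598 among them. Of 18 macrophage markers 17 passed the filter, and the mean level of all 18 was 11.19 and 11.10 on the LPS arrays and 11.23 and 11.22 on the LPS+M arrays. Cd163, a scavenger receptor of some macrophages, was near the lowest signals at 2.32. Mean levels of the B cell markers were 4.58 to 4.59 on the LPS arrays and 4.35 to 4.36 on the LPS+M arrays, and the defining markers Cd79a and Pax5 were near the lowest signals, at group means of 2.05 and 1.89 with LPS. The part of these markers in the results was not tested. Of the markers of other cell types, those above the filter were Blnk, Ighm, Cd5 and S100a8, and Ighm, the immunoglobulin heavy chain of the M class, fell from 8.09 and 8.0 to 6.79 and 6.72. Mean levels of T cell markers (3.17 to 3.25), neutrophil and mast cell markers (3.23 to 3.25) and fibroblast and epithelial markers (2.78 to 2.86) were low on all 4 arrays.

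With menthol before LPS, 598 of the 8908 genes differed from LPS alone, which is 6.71% of those tested. Of these 376 rose (4.22%) and 222 fell (2.49%). These shares are the ones to set beside the count of each list below. The largest rises were of the dendritic cell marker Cd83 and the stress genes Ddit4 and Trib3, and the largest falls were of the antiviral gene Ifit1, the NF-κB inhibitor Tnfaip3 and the interferon-stimulated genes Rtp4 and Usp18. Differences ran from -3.60 to 3.22, with a median of 0.03 over all genes tested and a median SE of 0.08. At least 2-fold changes made up 84 of the rises and 52 of the falls, and at least 4-fold changes 6 and 4. The methods' t-test, at an unadjusted p under 0.05 and 1.5-fold, called 181 higher and 107 lower, and after Benjamini-Hochberg adjustment it called 0 in either direction. For single genes no exact permutation test was used, since its lowest two-sided p at 2 arrays a group is 0.333.

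**Figure D1:**
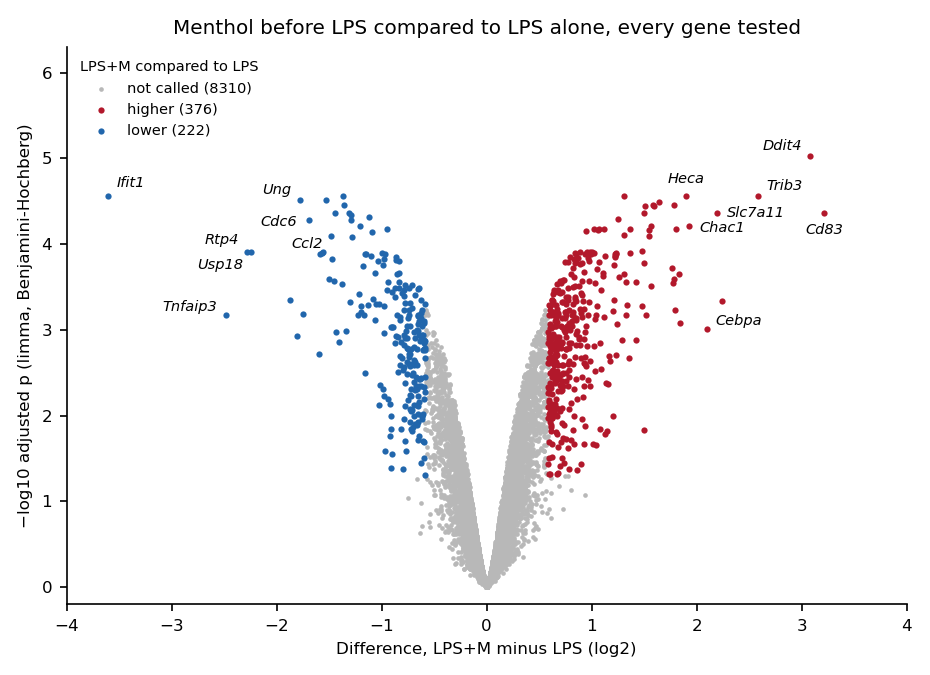
Each point is 1 of the 8908 genes tested, with the difference between LPS+M and LPS (log2) on the horizontal axis and the negative log10 of the limma adjusted p on the vertical axis. Red points are the 376 genes called higher and blue points the 222 called lower, with Ifit1 at -3.60 farthest to the left and Cd83 at 3.22 farthest to the right.

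Genes of the integrated stress response formed the group with the largest share of rises. Of 33 tested targets of ATF4 and CHOP, 23 rose (69.7%), 0 fell and 10 were not called, and the median difference of the list was 0.77, beside 0.03 for all genes. Leaving out any 1 array left 22 or 23 of them higher. Ddit4 encodes an inhibitor of the growth kinase mTORC1, and Trib3 a pseudokinase that restrains ATF4 itself.

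Some promoters of these genes carry the composite site that C/EBP and ATF factors share, and they are printed to show the letters that the members have in common. The motif searched was TGATGNAA on either strand, within 250 bases before to 50 bases after each start in the RefSeq promoters. It occurs in 3.97% of 32851 promoters and in 2.7% of the 7362 tested genes that have a promoter in the table. Among these genes, 24 of 299 that rose held it (8.03%), and so did 11 of 183 that fell (6.01%). Of the listed ATF4 and CHOP targets with a promoter, 11 of 34 held it, among them 8 of 21 that rose and 1 of 8 that were tested and not called. Matches are in capitals below, in a stretch with up to 35 bases on each side, read 5′ to 3′ along the gene's own strand. A stretch was cut at the start where it would have run past it. The first match began 66 bases before the start in Slc7a11, 193 in Chac1, 110 in Nupr1 and 23 in Asns. A match is a run of letters, not a measured binding site.
Slc7a11 (GRCm38.p6, chr3:50443618-50443714, minus strand): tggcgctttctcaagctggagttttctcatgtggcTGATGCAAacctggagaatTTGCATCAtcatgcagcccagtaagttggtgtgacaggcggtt
Chac1 (GRCm38.p6, chr2:119351014-119351091, plus strand): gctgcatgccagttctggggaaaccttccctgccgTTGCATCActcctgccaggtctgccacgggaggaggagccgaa
Nupr1 (GRCm38.p6, chr7:126625538-126625615, minus strand): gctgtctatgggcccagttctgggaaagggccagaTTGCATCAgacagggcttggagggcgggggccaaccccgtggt
Asns (GRCm38.p6, chr6:7693210-7693267, minus strand): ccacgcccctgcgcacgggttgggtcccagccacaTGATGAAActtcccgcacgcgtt

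The 4 genes printed rose together. Slc7a11, the cystine importer that feeds glutathione synthesis, read 8.65 and 8.64 with LPS alone and 10.88 and 10.79 with menthol before LPS. Its promoter stretch holds 2 matches facing each other, and its difference was 2.19 ± 0.12 (adjusted p = 4.34e-05). In control cells it read 6.24 and 6.63, and LPS alone differed from control by 2.21. Chac1, which degrades glutathione, went from 7.20 and 7.10 to 9.04 and 9.11. Nupr1, a small stress-induced chromatin protein, went from 10.35 and 10.47 to 11.98 and 11.86. Asns, asparagine synthetase, moved less, from 12.74 and 12.80 to 13.55 and 13.54, and is named here after its values were seen.

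Ddit4 had the largest rise of the list. It read 6.05 and 6.04 on the LPS arrays and 9.14 and 9.12 on the LPS+M arrays, a difference of 3.08 ± 0.09 or 8.47-fold (adjusted p = 9.36e-06). The control arrays read 6.64 and 6.93, so LPS alone lay below control and LPS+M above it. Trib3 read 8.32 and 8.46 with LPS and 10.89 and 11.06 with LPS+M, 5.98-fold higher. For both genes the LPS+M arrays lay above the LPS arrays, and groups did not overlap for 63% of all genes tested. Gadd45a, a growth-arrest gene, rose by 1.64, the amino acid transporters Slc1a4 and Slc6a9 by 1.57 and 1.5, and Sesn2, which reports leucine shortage to mTORC1, by 1.48. The transcription factors Atf5 (1.5), Jdp2 (1.31), Ddit3 (1.09), which encodes CHOP, and Atf4 (0.68) also rose, and these 4 were chosen after their values were seen. Of 19 tRNA synthetases tested, 3 rose and 0 fell, with a median of 0.19. These were Cars (0.97), Aars (0.75) and Yars (0.66), the cysteine, alanine and tyrosine enzymes, and Yars was not called without LPS+M replicate 1 (0.58). Endoplasmic reticulum chaperones and unfolded protein response genes had 2 of 23 higher (Crebrf and Herpud1, 8.7% beside 4.22% of all genes), with a median of 0.14. Of 25 NRF2 targets 3 rose (Slc7a11, Osgin1 and Sqstm1, 12%), with a median of -0.04. Herpud1 and Slc7a11 were also counted among the ATF4 and CHOP targets, so these lists are not separate evidence. Hmox1, the heme oxygenase that NRF2 controls, read 12.14 and 12.07 with LPS and 11.95 and 11.96 with LPS+M and was not called. The methods' t-test did not call Atf4 or Sesn2, and averaging a gene's probe sets left Atf4 (0.53) and Ddit3 (0.54) short of 1.5-fold.

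**Figure D2:**
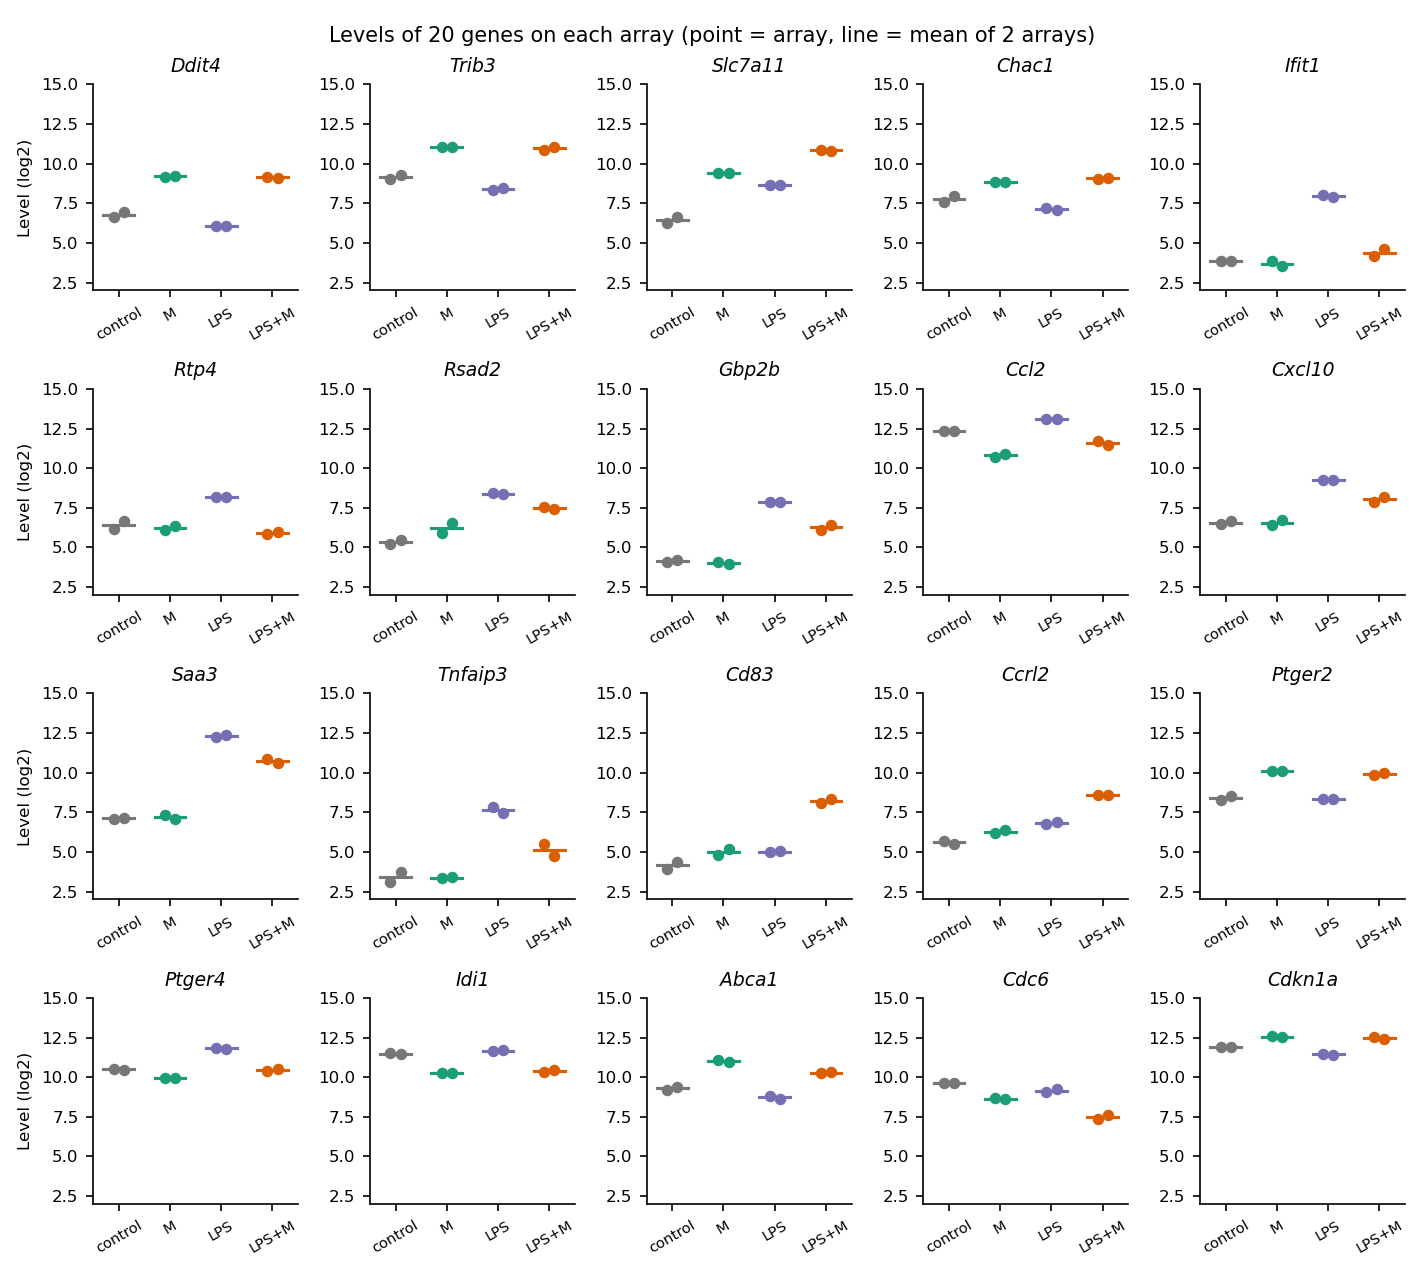
Level (log2) of 20 genes on each of the 8 arrays, with the 4 groups side by side. Each point is an array and each line the mean of the 2 arrays of a group. Ddit4, Trib3 and Ptger2 sit high on the M and LPS+M arrays, Ifit1, Rtp4 and Saa3 sit highest on the LPS arrays, and Cd83 is highest on the LPS+M arrays, at 8.10 and 8.37.

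The interferon-stimulated genes moved the other way. Of 32 tested, 11 fell (34.4%, beside 2.49% of all genes), 0 rose and 21 were not called, and the median was -0.23. With any 1 array left out, 10 to 12 of them were lower. Guanylate-binding proteins (GBPs) and immunity-related GTPases, which attack the vacuoles of intracellular microbes, had 6 of 8 lower and a median of -0.84. Gbp7 and Gbp2b among them, and Ifit1 among the interferon-stimulated genes, passed the filter only through their high LPS level. With no filter the medians were -0.61 over the 11 GBPs and GTPases on the array and -0.20 over the 42 interferon-stimulated genes. Genes of interferon signaling itself had counts near the shares over all genes (2.49% lower and 4.22% higher), which is no result about the list. They had 0 of 14 lower and 1 higher, with a median of 0.04. That gene was Jak2, a kinase of the interferon γ receptor among others, with a difference of 0.62, and it was not called without LPS+M replicate 1 (0.56) or by the methods' t-test. Irf9, a subunit of the complex that reads interferon signals, read 7.41 and 7.37 with LPS and 7.0 and 7.12 with LPS+M, and Irf1 read 7.61 and 7.69 and then 7.52 and 7.5, and neither was called.

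The promoters of 4 of the genes that fell are printed with the core of the interferon-stimulated response element (ISRE), GAAANNGAAA, in capitals. All 5 matches shown lie on the opposite strand and so read as the reverse complement. The motif occurs in 3.44% of all promoters and in 3.76% of tested genes with a promoter. Among these genes, 12 of 299 that rose held it (4.01%), and so did 17 of 183 that fell (9.29%). Of the listed interferon-stimulated genes 12 of 29 held it, in 3 of 8 that fell and 6 of 15 that were not called. Of the GBPs and immunity-related GTPases 7 of 8 held it. Both motifs occur together in 77 of the 32851 promoters and overlap in 8.
Ifit1 (GRCm38.p6, chr19:34640750-34640848, plus strand): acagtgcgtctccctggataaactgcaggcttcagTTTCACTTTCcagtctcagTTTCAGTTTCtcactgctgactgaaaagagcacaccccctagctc
Gbp7 (GRCm38.p6, chr3:142530248-142530327, plus strand): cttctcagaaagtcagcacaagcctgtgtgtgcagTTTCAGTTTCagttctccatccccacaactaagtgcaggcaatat
Gbp2b (GRCm38.p6, chr3:142594675-142594754, plus strand): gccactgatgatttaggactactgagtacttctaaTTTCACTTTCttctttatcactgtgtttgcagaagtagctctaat
Rsad2 (GRCm38.p6, chr12:26456528-26456607, minus strand): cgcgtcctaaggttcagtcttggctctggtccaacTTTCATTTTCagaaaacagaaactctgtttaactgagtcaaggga

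Ifit1, which binds foreign RNA ends, had the largest fall among the genes tested. It read 3.86 and 3.84 in control cells, 8.04 and 7.90 with LPS, and 4.14 and 4.59 with menthol before LPS. The difference was -3.60 ± 0.15, a 12.2-fold fall (adjusted p = 2.73e-05). The LPS+M arrays lay under the filter level of 4.84 and nearer to the control arrays than to the LPS arrays. The size of the fall therefore rests on low signals. Ifit1 passed the filter only through its high LPS level, as did Tnfaip3, Gbp7, Gbp2b and Cd274. Cd83 and Cebpa passed only through LPS+M. These 7 had to differ from the other groups to be tested, and their ranks rest on that. Klf2, Cd180 and Gm20300 passed only through control cells. Of 36 tested genes over the filter only through their highest group, 16 were called, beside 6.71% of all genes. With no filter Ifit1 had an adjusted p of 0.000594 in limma. Rtp4, a chaperone of receptors, read 8.21 and 8.20 with LPS and 5.85 and 5.99 with LPS+M, below its control values of 6.19 and 6.69. Usp18, the protease that removes the ubiquitin-like modifier of interferon responses, went from 8.52 and 8.77 to 6.43 and 6.39, also below control (6.89 and 7.34). Cmpk2, a mitochondrial nucleotide kinase, fell by 1.74, Ifit2 by 1.44, the proapoptotic gene Xaf1 by 1.22 and the DNA sensor family member Ifi204 by 0.91, and Oasl1, Samd9l and Trim30a made up the rest of the 11. Ifi207, a relative of Ifi204 that is among the 15 largest falls, read 8.83 and 8.97 with LPS and 6.89 and 7.72 with LPS+M. Rsad2, the antiviral enzyme viperin, kept more of its LPS level. It read 8.41 and 8.36 with LPS and 7.53 and 7.42 with LPS+M, against 5.20 and 5.46 in control cells, and the difference of -0.91 ± 0.19 was not called in a fit with no filter (adjusted p = 0.0517).

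Among the GBPs the LPS+M arrays differed in how near they lay to control. Gbp2b read 4.10 and 4.18 in control cells, 7.84 and 7.86 with LPS and 6.11 and 6.44 with LPS+M. Gbp7 read 6.62 and 6.35 with LPS and 4.59 and 4.64 with LPS+M, which lay on its control values of 4.60 and 4.63, and fell by 1.88 ± 0.18. Gbp2 fell by 1.22, Ifi47 by 0.85 and Gbp3 by 0.82. Igtp also fell. Gbp3 still read 9.85 and 10.09 with LPS+M, against 8.22 and 8.31 in control cells. Not called by the methods' t-test were Cmpk2, Xaf1, Ifi204, Ifi207, Gbp2b and Gbp3.

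Most CC chemokines with a signal above the filter fell. These secreted proteins draw leukocytes into tissue. Of 7 CC chemokines tested 5 fell, 0 rose, and all 7 differences were below 0, with a median of -0.65. Ccl2, the monocyte attractant, read 13.08 and 13.08 with LPS and 11.72 and 11.48 with LPS+M. The LPS+M values lay under those of control cells, 12.35 and 12.35, and the difference was -1.48 ± 0.09 (adjusted p = 7.99e-05). Ccl12, a close relative, fell from 10.21 and 10.34 to 9.0 and 8.92, again under control (9.84 and 9.86). Ccl3 fell from 14.17 and 14.30 to 13.53 and 13.41 and stayed above control (11.83 and 11.83). Ccl4 (-0.65) and Ccl5 (-0.61) were nearer to the 1.5-fold limit. Without LPS+M replicate 2 neither was called, at -0.49 and -0.53, and Ccl5 was not called without LPS replicate 2 either (-0.54). Ccl9 read 14.73 and 14.63 with LPS and 14.57 and 14.48 with LPS+M and was not called. Ccl7 lay under the filter, and in the fit with no filter it fell by 1.54 (adjusted p = 0.00337). Of 4 CXC and other chemokines tested, Cxcl10, the interferon-induced attractant of T cells, fell from 9.24 and 9.25 to 7.90 and 8.20, and the other 3 were not called.

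Of the cytokines that were also assayed as protein in these cells, 4 of 5 tested fell (80%, beside 2.49% of all genes). These were the chemokines Ccl3, Ccl5, Ccl12 and Cxcl10, already counted above, so they are not further genes. The list of assayed cytokines came with the study, so it is not independent evidence of its direction. Tnf, tumor necrosis factor, read 10.93 and 10.92 with LPS and 10.65 and 10.54 with LPS+M, a difference of -0.33 ± 0.10 (adjusted p = 0.038) that did not reach 1.5-fold. Il1b, interleukin 1β, lay under the filter and read 3.10 and 3.08 in control cells and 3.09 and 3.08 with menthol alone. It read 5.90 and 5.41 with LPS and 3.14 and 3.22 with LPS+M, and the fit with no filter called it lower (adjusted p = 0.00102). Since the LPS+M arrays lay near the control level, no size is given for its fall. Il6 read 2.38 and 2.66 with LPS and 2.29 and 2.34 with LPS+M, near the lowest signals of the arrays in every group. Of 29 tested genes that the study names as raised by LPS and lowered with menthol, 19 fell and 0 rose, with a median of -0.75. That list was chosen on these same arrays, so its count is a description of how many pass the present test.

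Other products of LPS-treated macrophages also fell. Saa3, an acute-phase serum amyloid, read 7.06 and 7.16 in control cells, 12.23 and 12.36 with LPS and 10.84 and 10.63 with LPS+M, a difference of -1.56 ± 0.11. Marco, a scavenger receptor for bacteria, fell from 9.86 and 9.86 to 8.90 and 8.88, near its control values of 8.61 and 8.74. Mmp13, a collagenase, fell by 1.17. These were the 3 genes called lower among 14 acute-phase, complement and secreted defense proteins, and 0 of the list rose. Acod1, the itaconate-producing enzyme, read 11.08 and 11.06 with LPS and 10.79 and 10.66 with LPS+M, against 4.24 and 4.61 in control cells, and was not called (adjusted p = 0.0702). Nos2, inducible nitric oxide synthase, lay near 1.9 on all 8 arrays, the lowest part of the scale, so these probes gave no measure of it. By the methods' t-test no call was made for Ccl2, Ccl4, Ccl7, Cxcl10, Il1b or Mmp13.

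Genes of NF-κB and of Toll-like receptor signaling did not move as 1 group. Of 13 genes of NF-κB subunits, inhibitors and IκB kinases tested 3 fell (Ikbkg, Nfkbia and Ikbke) and 1 rose (Bcl3), while the median of the list was 0.27. A second gene rose without LPS replicate 1 or without LPS+M replicate 2. Tnfaip3, outside this list and counted among the feedback inhibitors, which encodes the deubiquitinase A20, read 3.12 and 3.71 in control cells, 7.83 and 7.44 with LPS, and 5.52 and 4.77 with LPS+M. The fall of 2.49 ± 0.27 was the second largest of all genes and had a wider spread between arrays than most. Nfkbia, which encodes IκBα, fell from 14.40 and 14.46 to 13.52 and 13.84, with 4 of its 5 probe sets called lower, and the kinase Ikbke fell by 0.63. Bcl3, an atypical IκB protein that binds NF-κB in the nucleus, rose from 7.85 and 7.91 to 9.23 and 8.94. The subunits Rela, Rel and Relb had differences of 0.47, 0.48 and 0.55 with adjusted p of 0.00251, 0.00493 and 0.00696, under the 1.5-fold limit, and Nfkbie had 0.41. Of 24 feedback inhibitors of Toll-like receptor signaling 3 fell and 2 rose (Marcks and Trib1), and the count of rises was 1 without LPS replicate 2 or LPS+M replicate 2 and 0 without LPS+M replicate 1. Those that fell were Tnfaip3, Ptpn22 (-0.75), a phosphatase of immune receptors, and Irak3 (-0.65), a kinase-like brake on the pathway.

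Of 11 Toll-like receptors and co-receptors 2 fell (Tlr1 and Cd180) and 1 rose (Tlr7), and without LPS replicate 2 or LPS+M replicate 1 the count of rises was 0. Tlr1, the partner of Tlr2 for bacterial lipopeptides, fell from 9.73 and 9.77 to 8.70 and 8.73, near its control values of 8.53 and 8.44. Tlr2 itself read 13.27 and 13.28 with LPS and 13.82 and 13.81 with LPS+M, a difference of 0.54 ± 0.07 (adjusted p = 0.00143) that did not reach 1.5-fold. Tlr4 read 11.01 and 11.00 with LPS and 10.48 and 10.74 with LPS+M and was not called, and another of its probe sets had a difference of 0.25. Cd180, a relative of Tlr4 that dampens LPS signals, fell by 0.79. Among 15 adapters and kinases of the pathway 1 rose and 0 fell. That was the ubiquitin ligase Traf6, at 4.62 and 5.27 with LPS and 6.44 and 6.15 with LPS+M, and its other tested probe set gave 0.39, which was not called. Myd88, the adapter shared by most of these receptors, had a difference of 0.36. No call came from the methods' t-test for Nfkbia, Bcl3, Tnfaip3, Cd180 or Traf6.

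Surface molecules and receptors held some of the largest rises. Of 15 costimulatory and checkpoint molecules tested 5 rose and 1 fell. The counts moved with single arrays, to 4 higher and 3 lower without LPS replicate 1, 3 and 0 without LPS replicate 2, 3 and 3 without LPS+M replicate 1, and 4 and 1 without LPS+M replicate 2. Cd83, which marks mature dendritic cells, had the largest rise of all genes. It read 3.93 and 4.36 in control cells, 4.78 and 5.17 with menthol alone, 5.00 and 5.03 with LPS, and 8.10 and 8.37 with menthol before LPS. The difference was 3.22 ± 0.17, or 9.29-fold, and the LPS+M arrays lay above those of all other groups. Cd86, the ligand of the T cell receptors CD28 and CTLA4, rose from 9.07 and 8.96 to 10.32 and 10.21. Icosl and Nectin2 rose as well. Havcr2, the checkpoint receptor TIM-3, rose from 7.31 and 7.82 to 8.94 and 8.86. Cd274, the checkpoint ligand PD-L1, fell from 5.96 and 6.47 to 5.43 and 5.45, and without LPS replicate 2 it was not called (-0.52). Cd40 read 11.48 and 11.67 with LPS and 11.11 and 10.97 with LPS+M and missed 1.5-fold, and Cd80 lay under the filter. Of 16 genes of the major histocompatibility complex (MHC) and antigen processing 0 were called in either direction, with differences from -0.28 to 0.35.

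The prostaglandin E2 receptors Ptger2 and Ptger4 moved in opposite directions. Ptger2 read 8.33 and 8.35 with LPS and 9.88 and 9.99 with LPS+M, a rise of 1.60 ± 0.08 (adjusted p = 3.63e-05). Ptger4 read 11.85 and 11.78 with LPS and 10.40 and 10.50 with LPS+M, a fall of 1.36 ± 0.07 that returned it to the control values of 10.52 and 10.46. Ccrl2, an atypical chemokine receptor, rose from 6.75 and 6.86 to 8.60 and 8.57. Cxcr4, the receptor of the chemokine CXCL12, read 12.01 and 11.91 in control cells, 10.66 and 10.38 with LPS and 11.87 and 11.90 with LPS+M. Cx3cr1, the fractalkine receptor, fell by 0.66 and was not called without LPS replicate 1 (-0.57). Of 15 inflammatory and lipid receptors of the G protein-coupled kind and their regulators, Gpr18 (1.13) and Gpr35 (1.15) rose and the signaling regulator Rgs18 fell, with 2 lower without LPS replicate 1 or LPS+M replicate 2 and 0 without LPS+M replicate 1. Gpr31b, outside that list, fell from 10.30 and 10.21 to 8.77 and 8.68. Il17ra, the interleukin 17 receptor, rose by 1.42, and Trem1, an amplifier of inflammatory signals on myeloid cells, by 0.91. Clec4a2, an inhibitory lectin, fell by 0.85, while its other tested probe set gave -0.18. Of 6 channels of the TRP family tested 0 were called, and Trpm8, the menthol receptor, read 3.30 and 3.32 with LPS and 3.28 and 3.45 with LPS+M, under the filter on every array. The methods' t-test did not call Cd274, Havcr2, Cxcr4, Cx3cr1, Gpr18 or Gpr35.

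Adhesion genes rose more often than they fell, with 5 of 24 higher (Cytip, Icam1, Cyth1, Cd93 and Tes) and 1 lower (Itga4), which was 0 lower without LPS replicate 1 or LPS+M replicate 1. Cytip, which releases integrins from their activators, rose from 7.32 and 7.47 to 9.02 and 8.94 and stayed under its control values of 9.22 and 9.33. Icam1, the ligand of leukocyte integrins, rose from 11.49 and 11.45 to 12.23 and 12.20, above an LPS level that already exceeded control (9.72 and 9.72).

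Transcription factors of macrophages moved in both directions, 7 of 32 higher and 5 lower. Cebpa, a factor of myeloid differentiation, read 4.58 and 4.70 in control cells, 4.19 and 3.36 with LPS and 5.66 and 6.08 with LPS+M, a rise of 2.1 ± 0.25. Klf4, a regulator of monocyte identity, rose from 8.23 and 8.16 to 9.55 and 9.80. Fosl2 and Junb rose and Tfeb fell. Egr1 rose by 1.26, Bhlhe40 by 1.13 and Ahr, the aryl hydrocarbon receptor, by 1.12. Cebpa, Klf4, Egr1, Bhlhe40 and Ahr each read lower with LPS than in control cells, by 0.67 to 1.27. Maf, a factor of tissue macrophages, fell from 10.87 and 10.89 to 9.11 and 9.47, under control (11.54 and 11.49). Klf2 read 6.88 and 6.22 in control cells, 5.55 and 5.50 with LPS and 4.08 and 4.17 with LPS+M, so its mean was lower with LPS and lower again with menthol before it. Myc, the growth factor-responsive oncogene, fell from 7.96 and 7.94 to 7.09 and 7.21, and Mitf, a factor of osteoclasts and pigment cells, fell by 0.78 and was named after its values were seen. A second Mitf probe set gave -0.13. Not called by the methods' t-test were Cebpa, Egr1, Maf and Mitf, and averaging a gene's probe sets lost Ahr (0.56) and Mitf (-0.46).

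**Figure D3:**
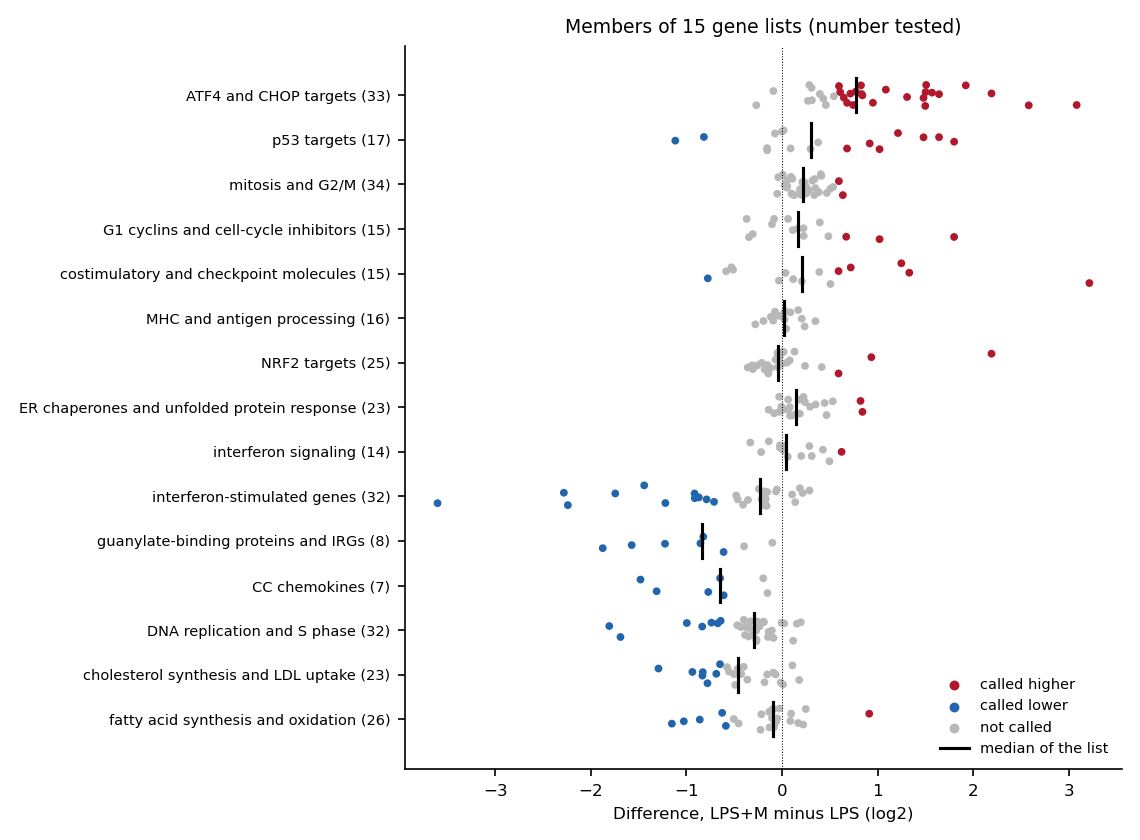
Differences (log2) between LPS+M and LPS of the tested members of 15 gene lists, with the number tested in brackets. Each point is a gene, red where called higher, blue where called lower and grey where not called, and the black line is the median of the list. The ATF4 and CHOP targets sit to the right with a median of 0.77, the GBPs and CC chemokines sit to the left at -0.84 and -0.65, and the MHC genes lie around 0.

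A part of the genes of lipid synthesis fell. Of 23 genes of cholesterol synthesis and LDL uptake 7 fell, 0 rose and 20 differences lay below 0, with a median of -0.46, and 6 to 9 were lower when any 1 array was left out. Idi1, which makes the isoprenoid building block, read 11.64 and 11.71 with LPS and 10.31 and 10.46 with LPS+M, a fall of 1.29 ± 0.07 (adjusted p = 4.55e-05). Control cells read 11.50 and 11.47 and cells given menthol alone 10.29 and 10.26, so the 2 groups with menthol lay together and the 2 without it lay together. Hsd17b7 fell by 0.94, Mvd by 0.83, Insig1, the sterol-sensing brake on the pathway, by 0.83, Hmgcs1 by 0.78, Cyp51 by 0.69 and Fdft1, squalene synthase, by 0.65. Fdft1 was not called without LPS replicate 2 (-0.56), and the mean of all probe sets did not call it (-0.29) or Hsd17b7 (-0.57). Of 26 genes of fatty acid synthesis and oxidation 5 fell and 1 rose, with Fabp3 and Fasn among those lower. Not every one of these falls was called in most fits with 1 array left out. Lpl, the lipoprotein lipase, fell from 14.20 and 14.12 to 13.25 and 13.34, Fabp4, a fatty acid carrier, from 8.91 and 8.97 to 7.69 and 7.89, and Acss2, which makes acetyl-CoA from acetate, by 1.03. Hilpda, a lipid droplet protein, rose by 0.91. In the export direction, Abca1, the cholesterol pump that loads apolipoprotein A1, rose from 8.84 and 8.65 to 10.24 and 10.33, while the other 10 tested targets of the liver X receptor were not called. With the mean of all probe sets, Abca1 (0.56), Fabp4 (-0.51) and Acss2 (-0.43) fell short of 1.5-fold, and the methods' t-test did not call Mvd, Insig1, Hmgcs1, Fdft1 or Acss2.

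Some genes of entry into S phase fell. Of 32 tested genes of DNA replication and S phase 7 fell and 0 rose, with a median of -0.29, and 28 of the 32 differences were below 0. Ccne2, a cyclin that starts S phase, read 8.24 and 8.33 with LPS and 6.07 and 6.89 with LPS+M. Cdc6, which loads the replicative helicase, read 9.07 and 9.24 with LPS and 7.34 and 7.59 with LPS+M, against 9.64 and 9.60 in control cells, and fell by 1.69 ± 0.10 (adjusted p = 5.24e-05). Ccne1 fell by 1.00, Uhrf1, which maintains DNA methylation, by 0.83, Mcm4 by 0.74 and Rrm2, the ribonucleotide reductase subunit, by 0.64. Ung, the uracil-DNA glycosylase, is outside the list and fell from 8.63 and 8.72 to 6.88 and 6.91. Of 34 mitotic genes 0 fell and 2 rose (Cenpf and Prc1, 5.88% beside 4.22% of all genes). Of their differences 32 lay above 0, with a median of 0.22.

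Of 17 tested p53 targets 7 rose and 2 fell (Plk2 and Sesn1), with 1 lower without LPS replicate 2 or LPS+M replicate 1. Cdkn1a, the cyclin-dependent kinase inhibitor p21, rose from 11.48 and 11.43 to 12.52 and 12.43. Ccng2, a cyclin of arrested cells, read 9.06 and 9.12 in control cells, 7.77 and 8.06 with LPS and 9.61 and 9.83 with LPS+M, and rose by 1.80 ± 0.11. Trp53inp1 rose by 1.21, Btg2, an antiproliferative gene, by 0.92 and Phlda3, an inhibitor of the kinase AKT, by 0.68. Gadd45a and Sesn2 also belong to the list of ATF4 and CHOP targets, so the lists are not separate evidence. Plk2, a stress kinase, fell from 10.03 and 10.06 to 8.90 and 8.96. By the methods' t-test no call was made for Ccne2, Btg2 or Phlda3, and the mean of all probe sets did not call Plk2 (-0.56).

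The remaining genes among the 15 largest rises were AI504432 (2.24), a locus with no name beyond its symbol, Heca (1.90), Map3k5 (1.84), Aqp9 (1.83), Arrdc3 (1.80), Bcor (1.79) and Rab11fip1 (1.78). Map3k5, the stress kinase ASK1, read 6.74 and 6.80 in control cells, 4.83 and 5.59 with LPS and 7.14 and 6.96 with LPS+M. Aqp9, a channel for water and glycerol, rose from 6.28 and 6.65 to 8.13 and 8.45. Arrdc3, an arrestin-like adapter, read 7.16 and 7.25 in control cells, 6.08 and 5.89 with LPS and 7.46 and 8.11 with LPS+M. Of the 3 tested probe sets of Bcor, a corepressor of BCL6, 1 was called and the others had differences down to 0.68. Gm20300 was the remaining gene among the 15 largest falls, at 5.62 and 5.70 with LPS and 4.06 and 4.27 with LPS+M. Dusp6, a phosphatase of ERK kinases, rose by 0.99, and the arginine transporter Slc7a1 and the polyamine enzyme Odc1 rose by 0.89 and 0.72. No call came from the methods' t-test for Map3k5, Arrdc3 or Bcor.

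Menthol was also given without LPS, and M compared to control shares no array with LPS+M compared to LPS. Without LPS, 405 genes were called (4.55%), 268 higher (3.01%) and 137 lower (1.54%). Of the 376 genes that rose with menthol before LPS, 185 (49.2%) also rose with menthol alone, and these were 69% of the 268. Of the 222 that fell, 90 (40.5%) also fell with menthol alone, 65.7% of the 137. Across the 8908 genes the differences with and without LPS correlated at 0.78, as a description over genes that share arrays within each comparison. A pair of genes were called in opposite directions. Rsad2 fell with LPS (-0.91) and rose without it (0.88), and Elmo2, named after its values were seen, rose with LPS (0.61) and fell without it (-0.59). The interaction test described below called neither gene, with -1.79 for Rsad2 (limma adjusted p = 0.06). With no filter the fall of Rsad2 was not called either (limma adjusted p = 0.0517).

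Several of these genes and groups also differed with menthol alone. Ddit4 was 2.42 higher with menthol alone, Slc7a11 2.99, Ptger2 1.68 and Abca1 1.72, and Ccl2 was 1.52 lower and Idi1 1.21 lower. The median of the ATF4 and CHOP targets was 0.59 without LPS, that of cholesterol synthesis -0.51 and that of the CC chemokines -1.01. The interferon-stimulated genes had a median of -0.06 and the GBPs and immunity-related GTPases -0.22 without LPS.

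The difference between both menthol differences was tested by the interaction of menthol and LPS, which called 21 genes (0.236%), 3 positive (0.0337%) and 18 negative (0.202%). Ifit1 had the largest, -3.45 ± 0.21 (adjusted p = 0.00236), and menthol alone gave -0.15 for it. Ifit1, Gbp2b and Cd83 passed the filter only through 1 group, so they had to differ between groups to be tested. With no filter none of the 14 called genes named here kept its call. Rtp4 (-2.09), Cmpk2 (-1.94), Usp18 (-1.68), Gbp2b (-1.45) and Ifit2 (-0.80) are interferon-stimulated genes as well. Saa3 (-1.66), Marco (-1.02), Myc (-0.95), Ptger4 (-0.84) and Irak3 (-0.62) had negative values too. Cd83 (2.38), Ccrl2 (1.12) and the zinc finger gene Hivep3 (1.11) were the 3 positive genes, and Hivep3 read 11.58 and 11.65 with LPS and 12.05 and 12.20 with LPS+M, which was not called by itself. Ccl2 and Idi1 had interactions of 0.04 and -0.08, with adjusted p of 0.967 and 0.862. With 1 array left out the number called ran from 2 (without M replicate 2) to 40 (without LPS+M replicate 2), and it was 1 with no filter on low genes. Ifit1 was called in 8 of 8 such fits, Saa3 in 7, and Rtp4 and Cd83 in 5.

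**Figure D4:**
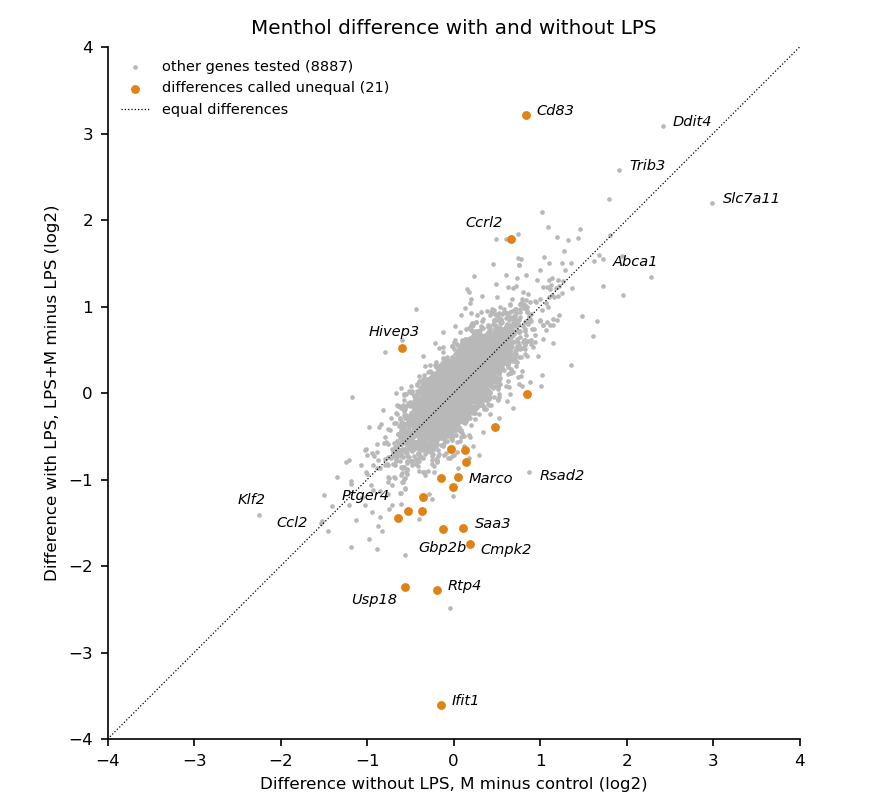
Difference with menthol in cells given LPS (LPS+M minus LPS, log2, vertical axis) against that in cells without LPS (M minus control, log2, horizontal axis) for the 8908 genes. Grey points on the dotted line have equal differences, and the 21 orange points are genes whose differences were called unequal. Ifit1 lies at -3.60 with LPS and -0.15 without it, Cd83 at 3.22 and 0.83, and Ddit4 at 3.08 and 2.42.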

How the data were processed

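RNA of RAW 264.7 cells was hybridised to 8 Affymetrix mouse genome arrays, 2 in each of 4 groups. The deposited values were log2 signals that the authors computed with GCRMA (version 2.10.0, run with R version 2.6.1, per the submitters' processing notes), which subtracts a sequence-dependent background, quantile normalizes and summarises probes, so levels near 2 have no order. Of 45101 probe sets, 34945 had 1 gene symbol, 932 several, 9160 none and 64 were controls, and symbols came from GEO's platform annotation. A linear model with 4 group means was fitted to all 8 arrays in limma 3.58.1 (R 4.3.3), with 4 residual degrees of freedom, and contrasts were moderated by eBayes and adjusted by Benjamini-Hochberg over the 8908 genes tested. The code was tested on simulated data. Promoters (GRCm38.p6) were taken from RefSeq with Python 3.11.15. Precision is limited by the number of arrays.

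The members and gene lists were chosen with earlier results of these data known. Named were the 15 called genes with the largest rise and the 15 with the largest fall, every gene the study names for LPS and menthol together, up to 8 called members of each list, members of lists shorter than 22 genes, up to 6 interaction genes in each direction and the genes of printed sequences, from which members with low or unstable values were given by name or count alone. Alternatives changed the filter, probe set, scaling, test, fold minimum, arrays in the fit and replicate block, and left out each array.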

Additional observations from a re-analysis of the deposited data

Results flagged for a closer look

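The menthol difference with LPS and that without LPS were unequal by the limma interaction test for 14 of the genes described, at an adjusted p under 0.05. Each value is the difference with LPS minus that without it, in log2. Lower with LPS than without were Ifit1 (-3.45), Rtp4 (-2.09), Cmpk2 (-1.94), Usp18 (-1.68), Saa3 (-1.66), Gbp2b (-1.45), Marco (-1.02), Myc (-0.95), Ptger4 (-0.84), Ifit2 (-0.80) and Irak3 (-0.62). Higher with LPS than without were Hivep3 (1.11), Ccrl2 (1.12) and Cd83 (2.38). With any 1 of the 8 arrays left out, Ifit1 was called in 8 fits, Saa3 in 7, Rtp4 and Cd83 in 5, Marco and Ccrl2 in 4, Gbp2b in 3, Cmpk2, Usp18, Ptger4 and Hivep3 in 2, Myc and Irak3 in 1 and Ifit2 in 0, while the sign of each held in all 8. With no filter on low genes none of the 14 was called. The time after menthol may differ between the groups with and without LPS, and its part in these values was not tested.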

How the results depend on the processing

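Apart from Elmo2, whose direction was not followed through the alternatives, every called gene given with a value kept its direction under each alternative run. The counts moved with the fold minimum, the test and the probe set. With the mean of all probe sets 218 genes were higher, 104 of them with menthol alone too. It lost 16 of the genes described, among them Slc7a1, Irak3, Traf6, Cx3cr1, Clec4a2 and Ighm. With the probe set of highest variance 385 were lower, 173 in both comparisons, and the interaction called 2. With every probe set by itself 618 were higher and 490 lower, 283 and 228 in both comparisons, and the interaction called 2. The methods' t-test gave 181 and 107, with 79 and 29 in both, and after adjustment 0 and 0, with 0 and 0 in both. With no fold minimum there were 1542 higher and 1018 lower, 877 and 519 in both, and with a 2-fold minimum 84 and 52, 42 and 13 in both, and 11 by interaction. The interaction called 1 gene with no filter, 45 with a trended and robust prior and 124 at an unadjusted p. Leaving out 1 array gave 364 to 428 higher, 201 to 287 lower, 2 to 40 by interaction, and 158 to 185 higher and 74 to 89 lower in both. A lone array left in a group was assumed to vary like the other groups. Genes that were not called changed sign as follows: Nos2 was -0.0248 with the same median over the genes tested and -0.0143 to 0.0188 with 1 array left out (-0.000357 without LPS replicate 1), Tlr4 was 0.0666 with the probe set of highest variance and 0.253 with its next probe set, and Trpm8 was -0.0344 to 0.134 with 1 array left out. The cause of these changes was not tested. Setting each array to the same median over the genes tested, chosen after seeing the data, kept 551 of the 598 calls, and the share of calls that were higher was 56% there, 56.9% after quantile normalization and 62.9% in the values reported. The labels share replicate numbers but name no pairing. The replicate block gave 603 calls, 594 of the 598 among them, and the replicate differences of LPS and LPS+M correlated at 0.19 over genes, with 2 pairs. Low signals limit genes near the bottom of the scale, such as Il6 and Nos2.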

Other observations

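Other lists held few calls. Over all genes tested 4.22% were higher and 2.49% lower, and a count near these shares is no result about the members of its list. Of 23 genes of the BCL2 family and cell death 3 rose, Bmf, Ier3 and Pmaip1, and 0 fell, with 5 higher and 1 lower without LPS+M replicate 1 and 1 lower without LPS replicate 1. Of 15 G1 cyclins and inhibitors 3 rose, Ccnd2, Ccng2 and Cdkn1a. Of 15 interleukins and receptors 3 rose, Il17ra, Il18rap and Osm, which became 1 without LPS+M replicate 1 and 2 when any other array was left out. Of 10 genes listed under the cAMP and CREB response 3 rose, Crem, which encodes a cAMP-responsive factor, Pde3b and Crebrf. Crebrf was also counted among the unfolded protein response genes, so its rise is not particular to this list. In the list of nitric oxide, itaconate and arginine genes Gch1 rose beside Odc1 and Slc7a1, 3 of 13. Autophagy and lysosome genes had 2 of 28 higher, Sqstm1 and Ulk1, with a median of 0.06, and 1 higher without LPS replicate 2 or LPS+M replicate 1. Heat shock proteins had 1 of 17 higher (Hspa4l), and metallothioneins and metal transporters 1 of 11 (Slc39a14), with 1 lower without LPS replicate 2. Glycolysis and hypoxia genes had 1 of 24 higher (Ero1a), which was 2 without LPS replicate 1 or LPS+M replicate 2. The TNF superfamily had 1 of 11 higher (Tnfsf9) and 0 lower, with 2 lower without LPS replicate 1 or LPS+M replicate 1, and 2 higher and 1 lower without LPS+M replicate 2. Colony-stimulating and growth factors had 1 of 12 higher (Csf1), which was 0 without LPS replicate 1, LPS replicate 2 or LPS+M replicate 1. MAPK phosphatases and MAP3 kinases had 3 of 20 higher, Dusp5, Dusp6 and Map3k5, and 1 lower, Map3k8, which was 0 lower without LPS+M replicate 1 and 2 without LPS+M replicate 2. Of 34 ribosome biogenesis genes 1 fell (Rrp1b), and 30 of the 34 differences lay below 0, with a median of -0.22.

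Probe sets with no gene symbol or with several were fitted by themselves. Of 1313 above the filter 32 were higher and 58 lower with menthol before LPS than with LPS alone.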
